A study of Mus musculus with 25 samples.

Results

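The mitotic and checkpoint kinases described here are *Aurka*, *Aurkb*, *Plk1*, *Nek2*, *Bub1*, *Bub1b*, *Ttk*, *Mastl*, *Pbk* and *Melk*. They were chosen as a list of 10 gene symbols, and all 10 were present among the 15315 genes of the long-term table and the 14007 genes of the short-term table. Their mRNA was measured by RNA-seq in the pituitary, with its tumors, of 25 sh*Rb* mice. These mice carry Rosa26 rtTA, which the Rosa26 promoter drives in many tissues, and *Col1a1* shRb5-4, which came from a single embryonic stem cell clone. Doxycycline (dox) in the drinking water induces the shRNA that targets *Rb* and a linked *GFP*, and both are lost again after dox is removed. All groups carried both transgenes and all had received dox as adults, so that these libraries hold no untreated pituitary.

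The long-term libraries, made from poly(A) RNA, came from 3 mice treated with dox for 6 weeks (6w+dox, 3 females), 4 treated for 12 weeks (12w+dox, 2 females and 2 males) and 5 treated for 6 weeks and then kept off dox for 6 weeks (12w-res, 3 females and 2 males). The short-term libraries, made after depletion of ribosomal RNA, came from 3 mice treated for 16 weeks (16w +dox, all male), 4 mice 1 day after dox removal (1d -dox, all female), 3 mice after 3 days (3d -dox, all male) and 3 mice after 5 days (5d -dox, all female). Sex and time off dox therefore cannot be told apart when 1d -dox or 5d -dox is compared with 16w +dox. Whether the mice shared litters was not stated.

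Entry into mitosis and the separation of chromosomes are driven by protein kinases whose genes are transcribed late in the cell cycle. In cells that divide, RB and its relatives hold back E2F factors, and loss of RB releases genes of S phase and, through later factors, genes of mitosis. The intermediate lobe of the pituitary, which makes *Pomc*, is the lobe in which tumors are known to form in mice without RB.

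The labels were checked first. *Rb1* measured 1.86, 2.54 and 5.09 FPM in the 6w+dox mice (FPM, the fragment count scaled by the authors with DESeq2 size factors, not with read totals). It measured 3.45, 2.42, 2.93 and 4.05 FPM in the 12w+dox mice. In the 12w-res mice it measured 16.1, 17.01, 20.3, 19.2 and 18.2 FPM, above every dox-treated mouse. In the short-term libraries, *GFP* measured 1025 to 1360 FPM at 16w +dox and 9.34 to 15.2 FPM at 5d -dox, while *Rb1* stayed between 3.47 and 6.03 FPM in all 13 mice. Reads on genes numbered 19066053 to 28968476 per long-term library and 9573101 to 13036900 per short-term library. The melanotroph marker *Pomc* took 12.9% to 43.2% and 4.96% to 17.9% of them. The 2 tables were scaled separately, so levels are compared only within each.

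To find how the kinases stood after long-term RB re-expression, 12w-res was compared with 12w+dox. All 10 kinases fell, and each of the 5 12w-res mice was below each of the 4 12w+dox mice for every kinase. The mean level was 3.41-fold (*Mastl*) to 48.8-fold (*Pbk*) lower. Calls needed 2 things, an adjusted p below 0.05 and a log2 fold change past 1 in size (limma on log2(FPM + 0.5), Benjamini-Hochberg adjustment over all genes). By this rule 10 of 10 kinases were called lower, beside 5.04% of the 15315 genes tested. Every 12w-res mouse was below every 12w+dox mouse in 17.4% of all genes. The median log2 fold change was -3.14 over the kinases and -0.0040 over all genes. In bulk tissue, fewer cycling cells and less kinase mRNA per cell cannot be told apart.

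**Figure D1:**
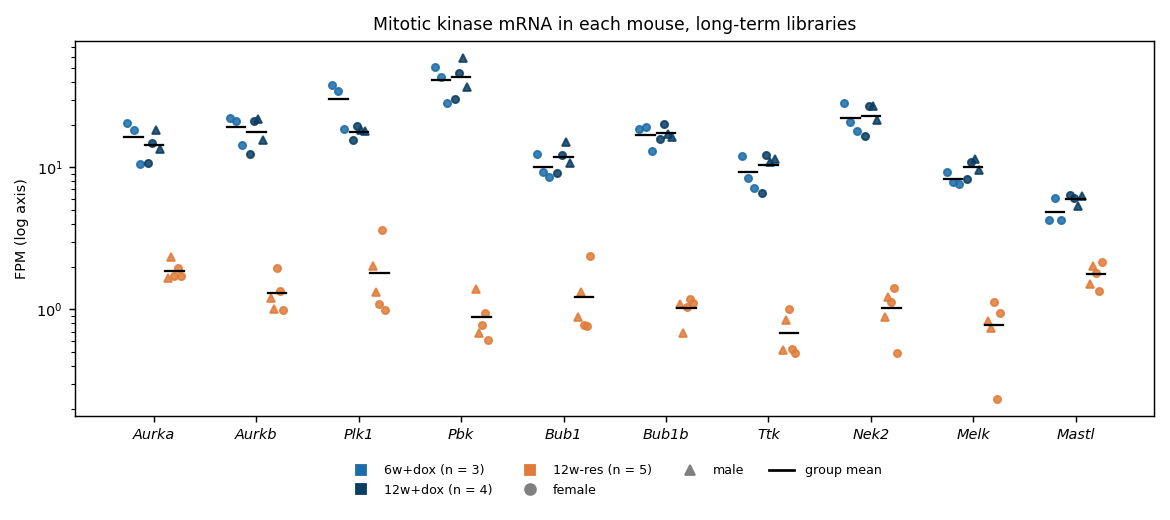
FPM of each kinase in each mouse of the long-term libraries on a log axis; each point is 1 mouse (circles female, triangles male) and each bar is a group mean. For every kinase the 5 12w-res mice sit below all 7 dox-treated mice, with the narrowest gap for *Mastl*.

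The Aurora kinases are described first. *Aurka* (NCBI Gene 20878, chromosome 2, 172356190 to 172370886, minus strand, GRCm38.p6) encodes the kinase that matures centrosomes and, bound to TPX2, builds the spindle. It measured 20.6, 18.3 and 10.5 FPM in the 6w+dox mice. It measured 10.8, 14.9, 18.2 and 13.6 FPM in the 12w+dox mice and 1.66, 2.32, 1.73, 1.95 and 1.71 FPM in the 12w-res mice. The 12w-res values were close to one another and far under the lowest dox-treated mouse, and in 12w-res the log2 fold change was -2.63 (SE, standard error, 0.21, adjusted p = 4.55e-07, limma). *Aurkb* (Gene 20877, chromosome 11, 69045624 to 69051664, plus strand) encodes the enzyme of the chromosomal passenger complex, which corrects faulty attachments of chromosomes to the spindle. It measured 22.2, 21.2 and 14.4 FPM at 6w+dox, 12.5, 21.0, 21.99 and 15.6 FPM at 12w+dox, and 1.20, 1.00, 1.96, 1.36 and 0.995 FPM in 12w-res. No 12w-res mouse reached the lowest dox-treated mouse, and the log2 fold change was -3.33 (SE 0.22, adjusted p = 6.20e-08).

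*Plk1* and *Nek2* act at the centrosome. *Plk1* (Gene 18817, chromosome 7, 122159435 to 122169884, plus strand) encodes the Polo kinase, which helps to switch on CDK1 and acts until cytokinesis. It measured 38.0, 34.7 and 18.7 FPM at 6w+dox, 15.5, 19.6, 18.2 and 18.01 FPM at 12w+dox, and 2.03, 1.32, 1.09, 3.60 and 0.995 FPM in 12w-res. The first 2 mice at 6w+dox were the highest, replicate 4 was the highest in 12w-res, and the log2 fold change of 12w-res against 12w+dox was -3.09 (SE 0.28, adjusted p = 2.00e-06). *Nek2* (Gene 18005, chromosome 1, 191821449 to 191833049, plus strand) encodes the kinase that frees the centrosomes from each other before mitosis. It measured 28.2, 21.0 and 18.05 FPM at 6w+dox, 16.5, 26.8, 26.9 and 21.5 FPM at 12w+dox, and 0.884, 1.22, 1.14, 1.42 and 0.497 FPM in 12w-res. Its mean was 22.3-fold lower in 12w-res than at 12w+dox (log2 fold change -3.95, SE 0.22, adjusted p = 1.91e-08). Exons of *Plk1* and of *Nek2* overlap a gene on the opposite strand in the GENCODE annotation, and since it is not stated whether counting used strand, reads of the partner cannot be told apart from theirs.

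*Bub1*, *Bub1b* and *Ttk* belong to the spindle assembly checkpoint, which delays anaphase until every chromosome is attached. *Ttk* (Gene 22137, chromosome 9, 83834651 to 83872390, plus strand) encodes MPS1, the kinase that starts the signal at kinetochores. It measured 12.0, 8.42 and 7.20 FPM at 6w+dox, 6.63, 12.2, 11 and 11.5 FPM at 12w+dox, and 0.520, 0.845, 1.00, 0.531 and 0.497 FPM in 12w-res (9 to 22 reads). Its highest 12w-res mouse was far below its lowest dox-treated mouse, and the log2 fold change was -3.19 (SE 0.22, adjusted p = 1.37e-07). *Bub1* (Gene 12235, chromosome 2, 127800197 to 127831859, minus strand) encodes a kinase that is recruited to kinetochores and marks centromeric histone H2A. It measured 12.3, 9.31 and 8.57 FPM at 6w+dox, 9.11, 12.2, 14.97 and 10.7 FPM at 12w+dox, and 0.884, 1.32, 0.774, 0.768 and 2.38 FPM in 12w-res. Replicate 5 was the highest 12w-res mouse for *Bub1*, and the log2 fold change was -2.88 (SE 0.25, adjusted p = 1.10e-06).

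*Bub1b* (Gene 12236, chromosome 2, 118598202 to 118641592, plus strand) encodes BUBR1, a part of the complex that inhibits CDC20. It measured 18.6, 19.2 and 13 FPM at 6w+dox, 15.7, 20.3, 17.2 and 16.3 FPM at 12w+dox, and 1.09, 0.687, 1.05, 1.18 and 1.11 FPM in 12w-res. In 12w-res 4 mice lay close together and replicate 2 lay below them, and the log2 fold change was -3.56 (SE 0.17, adjusted p = 7.35e-09). Per length (the log2 of FPM + 0.5 per kb of transcript), the difference of *Bub1* from *Bub1b* within a mouse ran from -0.91 to -0.090 in the 7 dox-treated long-term mice. In 12w-res it ran from -0.31 to 0.94.

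*Mastl* showed the smallest fall. It (Gene 67121, chromosome 2, 23116539 to 23156024, minus strand) encodes Greatwall, which acts through ENSA and ARPP19 to restrain the phosphatase that opposes CDK1. It measured 4.25, 6.06 and 4.26 FPM at 6w+dox, 6.35, 6.12, 5.36 and 6.31 FPM at 12w+dox, and 1.51, 2.01, 1.82, 1.36 and 2.16 FPM in 12w-res. The groups did not overlap, and the log2 fold change was -1.54 (SE 0.17, adjusted p = 1.63e-05).

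*Pbk* showed the largest fall. It (Gene 52033, chromosome 14, 65805911 to 65817822, plus strand) encodes a MAPKK-like kinase that is active in mitosis. It measured 50.8, 43.5 and 28.3 FPM at 6w+dox, 30.4, 45.9, 59.0 and 37.0 FPM at 12w+dox, and 1.40, 0.687, 0.774, 0.945 and 0.608 FPM in 12w-res (11 to 27 reads). Its log2 fold change was -4.96 (SE 0.23, adjusted p = 6.51e-09). *Melk* (Gene 17279, chromosome 4, 44300909 to 44364675, plus strand) encodes a kinase related to AMPK that is high in dividing and progenitor cells. It measured 9.32, 7.84 and 7.70 FPM at 6w+dox, 8.23, 10.99, 11.4 and 9.52 FPM at 12w+dox, and 0.832, 0.740, 1.14, 0.236 and 0.939 FPM in 12w-res. Replicate 4 held 4 reads of *Melk*, the fewest of any kinase in any mouse, and the log2 fold change was -3.08 (SE 0.22, adjusted p = 1.70e-07).

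The distance between *Pbk* and *Mastl* within a mouse shows how unequal the falls were. On the same scale per length, *Pbk* stood 4.40 ± 0.50 above *Mastl* at 12w+dox (SD, n = 4) and 4.63 ± 0.45 above it at 6w+dox (SD, n = 3). In 12w-res it stood 0.97 ± 0.50 above it (SD, n = 5), with every mouse nearer to 0 than any dox-treated long-term mouse. This pair was chosen for its unequal change, and the values are a description.

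Levels of different genes were compared per length, as FPM divided by the kilobases of the longest coding transcript. At 12w+dox *Pbk* was the highest (25.1 ± 7.20 FPM per kb, SD, n = 4) and its mice did not overlap those of the next, *Aurkb* (9.11 ± 2.32). *Aurkb*, *Plk1* (8.10 ± 0.779), *Aurka* (7.54 ± 1.62), *Nek2* (7.11 ± 1.54) and *Bub1b* (4.74 ± 0.561) followed, and each overlapped the next. *Ttk* (3.60 ± 0.875), *Bub1* (3.44 ± 0.730) and *Melk* (3.40 ± 0.489) overlapped one another below them, and *Mastl* was the lowest (1.08 ± 0.0826). In 12w-res the order was *Aurka* (0.985 ± 0.144 FPM per kb, SD, n = 5), *Plk1*, *Aurkb*, *Pbk*, *Bub1*, *Nek2*, *Mastl*, *Bub1b*, *Melk* and *Ttk* (0.237 ± 0.0801), and every kinase overlapped its neighbor. The spread of the group means was thus from 1.08 to 25.1 FPM per kb at 12w+dox and from 0.237 to 0.985 FPM per kb in 12w-res.

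**Figure D2:**
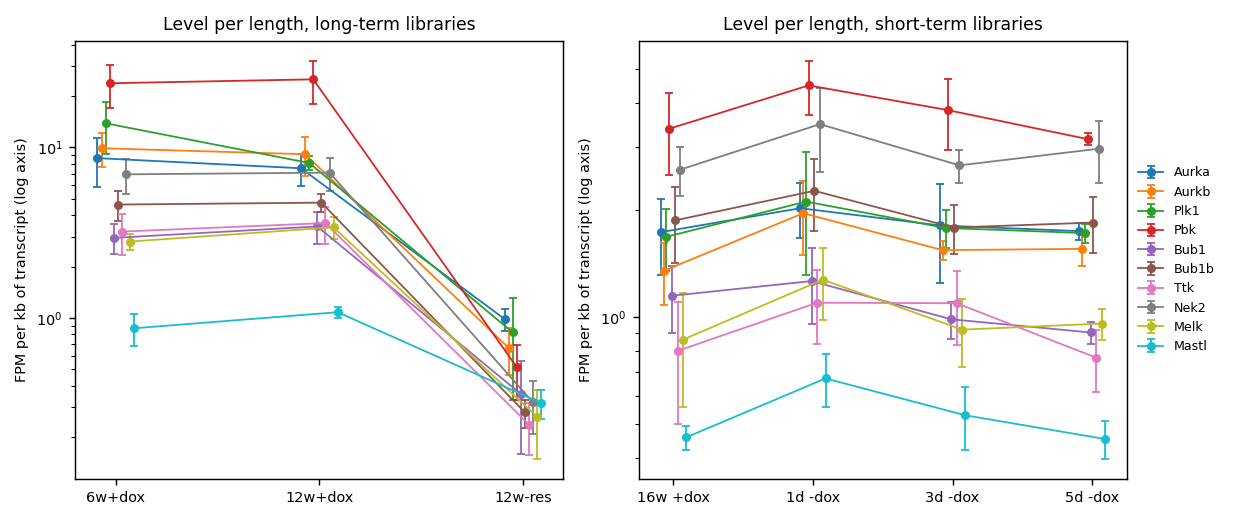
Mean level of each kinase per kilobase of transcript in each group, on log axes, for the long-term (left) and short-term (right) libraries; points are group means and bars are SD over 3 to 5 mice. The kinases lie between 1.08 and 25.1 FPM per kb at 12w+dox and between 0.237 and 0.985 in 12w-res, and keep *Pbk* at the top and *Mastl* at the bottom in every short-term group.

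The same 12w-res mice were also compared with 6w+dox, the stage at which dox had been removed. All 10 kinases were called lower, beside 5.82% of the 15315 genes, and every 12w-res mouse was below every 6w+dox mouse for all 10, beside 15.9% of all genes. The log2 fold changes ran from -4.89 (*Pbk*, SE 0.25, adjusted p = 1.74e-08, limma) to -1.23 (*Mastl*, SE 0.19, adjusted p = 2.48e-04), with a median of -3.24 over the kinases and -0.021 over all genes. *Plk1* was at -3.79 here and at -3.09 against 12w+dox, and both comparisons share the 12w-res mice.

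Scaling moved these values without changing a call of a kinase. When libraries were scaled by the total of their recovered reads, the median of all genes shifted to -0.61 in 12w-res against 12w+dox, and 3364 genes were called lower and 244 higher, in place of 772 and 955. The kinases' median was then -3.68, and all 10 were called lower. Against 6w+dox that scaling called 1638 genes lower and 497 higher, in place of 892 and 890, and again all 10 kinases were lower (median -3.46, all genes -0.33). A filter of at least 10 reads in every long-term library removed *Ttk*, *Nek2* and *Melk*, and the other 7 kinases were called lower in both comparisons.

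Other cell types differed between these groups too. In 12w-res against 12w+dox, 6 of 6 fibroblast and pericyte markers and 5 of 6 endothelial markers rose, beside 6.24% of all genes called higher. Of 5 somatotroph, lactotroph and thyrotroph markers 2 rose, *Gh* and *Prl* (log2 fold change 4.06). That list summed to 16077 to 30475 FPM in 12w-res and to 1154 to 12505 FPM at 12w+dox. Also higher were 2 of 5 stem and folliculostellate markers and 1 of 7 macrophage and leukocyte markers. The fibroblast and pericyte markers summed to 428 to 971 FPM in the 12w-res mice and to 65.4 to 261 FPM in the 12w+dox mice, and the endothelial markers to 189 to 262 and 58.6 to 125 FPM. Against 6w+dox, where the endothelial markers summed to 174 to 227 FPM, 0 of 6 endothelial and 2 of 6 fibroblast and pericyte markers rose, beside 5.81% of all genes called higher, and 10 of 10 kinases were lower. In that comparison 4 of 4 neural lobe markers (median log2 fold change -2.25) and 3 of 5 somatotroph, lactotroph and thyrotroph markers (median -1.95) fell, beside 5.82% of all genes called lower. The melanotroph and corticotroph markers, led by *Pomc*, summed to 458756 to 581048 FPM in 12w-res and to 96008 to 198296 FPM at 12w+dox. Of these 6 markers 2 were called, *Pcsk1* (log2 fold change 1.89) and *Pcsk2* (1.37), both higher in 12w-res. *Pomc*, which gave most of the sum, lay apart between the groups (452682 to 573321 FPM in 12w-res, 93231 to 194592 FPM at 12w+dox). It was at 1.86 with an SE of 3.08 (adjusted p = 0.663, limma). That SE draws on a variance trend over all genes and does not measure the spread of these mice. The missing call of *Pomc* therefore does not show that it was unchanged. *Pax7* (-0.38), *Tbx19* (-0.14) and *Crhr1* (-0.024) were not called either. None of the markers of the fibroblast, endothelial and melanotroph lists was at 0 in every mouse of a group. The part of these cell types in the kinases' fall was not tested.

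To see whether the kinases changed as tumors grew on dox, 12w+dox was compared with 6w+dox. None of the 10 was called in either direction, beside 7.20% of the 15315 genes, and for none did the groups lie apart, beside 25.2% of all genes. At an unadjusted p under 0.05 limma gave 1 kinase, *Plk1*. The share of all genes at that unadjusted level is not given, so this count is only a description. By edgeR and DESeq2 on the recovered reads 0 kinases were called as well. The log2 fold changes ran from -0.70 (*Plk1*, SE 0.32, adjusted p = 0.134) to 0.30 (*Mastl*, SE 0.20, adjusted p = 0.295), with a median of 0.062. Without 1 mouse in turn the median ran from -0.12 (without 6w+dox replicate 3) to 0.20 (without 12w+dox replicate 1) and 0.21 (without 6w+dox replicate 1). With totals of recovered reads the median over the kinases was 0.38 and that of all genes 0.29. Of somatotroph, lactotroph and thyrotroph markers 5 of 5 were called lower (median -2.89), beside 619 of 15315 genes. Also lower were 4 of 4 neural lobe (-2.71), 3 of 6 endothelial and 3 of 6 fibroblast and pericyte markers. Of 6 melanotroph and corticotroph markers *Crhr1* fell and *Pax7* rose. The part of these cell types in the kinases' values was not tested.

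A single mouse weighed on this comparison. Replicate 3 at 6w+dox was the lowest of its group in 9 of 10 kinases, with *Mastl* (4.26 FPM beside 4.25 in replicate 1) the exception, and it had the highest *Rb1* of the group (5.09 FPM). Its share of gene reads on *Pomc* was the lowest of the group (13.6%, beside 32.2% and 19.97%). A link of either to its kinase values was not tested. Without replicate 3, *Plk1* was at -1.01 (adjusted p = 0.0293, limma) and was called lower at 12w+dox. At 12w+dox, replicate 1 was the lowest in 9 of 10 kinases, and its *Rb1* (3.45 FPM) lay inside the range of its group.

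In the short-term libraries, made to follow the first days after dox removal, 0 of 10 kinases were called at any time point. The share of all 13958 genes called against 16w +dox was 0.0430% on the first day, 0.129% on the third and 0.193% on the fifth, so that few genes of any kind passed. At 1d -dox all 10 kinases had a log2 fold change above 0, from 0.12 (*Bub1*, SE 0.17) to 0.50 (*Melk*, SE 0.21), with a median of 0.38 and a smallest adjusted p of 0.203 (*Mastl*, limma). At an unadjusted p under 0.05 there were 5 kinases higher, and edgeR and DESeq2 also gave 5 at that level and called 0. The share of all genes at that level is not given here, so this count is only a description. *Mastl* measured 2.47, 2.78 and 2.42 FPM at 16w +dox and 3.20, 3.76, 4.64 and 3.41 FPM at 1d -dox. *Mastl* was the 1 kinase of 10 whose 1d -dox mice all lay above 16w +dox, beside 5.60% of all genes.

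**Figure D3:**
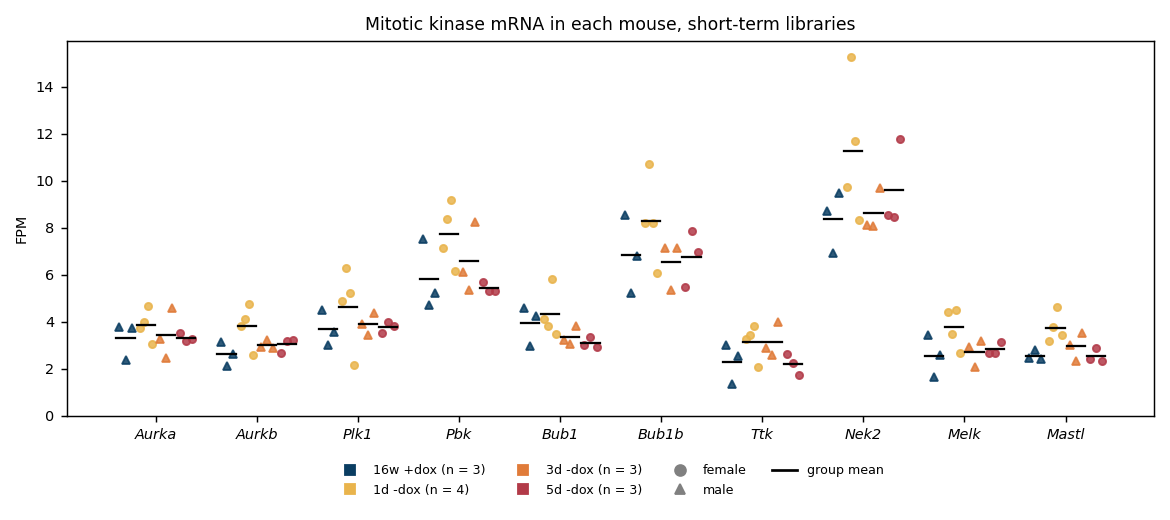
FPM of each kinase in each mouse of the short-term libraries; each point is 1 mouse (circles female, triangles male) and each bar is a group mean. The groups overlap for every kinase between 16w +dox and the later groups except *Mastl* at 1d -dox.

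Single mice set the size of the kinases' changes at 1d -dox. Replicate 2 at 16w +dox was the lowest of its group in 9 of 10 kinases, and for *Ttk* it measured 1.34 FPM beside 3.02 and 2.55. Without it the kinases' median at 1d -dox was 0.19, and *Bub1* turned to -0.048. *Bub1* also turned, to -0.022, without 1d -dox replicate 3. Replicate 4 at 1d -dox was the lowest in 9 of 10, for example 2.18 FPM of *Plk1* beside 4.90, 6.29 and 5.21, and without it the median was 0.50.

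At 3d -dox, where both groups were male, the log2 fold changes ran from -0.18 (*Bub1*, SE 0.18) to 0.41 (*Ttk*, SE 0.25), with a median of 0.094 and a smallest adjusted p of 0.424. At 5d -dox they ran from -0.28 (*Bub1*, SE 0.18) to 0.18 (*Aurkb*, SE 0.18), with a median of 0.012 and a smallest adjusted p of 0.521. No kinase reached an unadjusted p under 0.05 at either time point, by limma, edgeR or DESeq2. These medians moved when 1 mouse was left out. Without 16w +dox replicate 2 they were -0.058 (3d -dox) and -0.12 (5d -dox), and without replicate 1 of that group 0.18 and 0.17, in the same order. For 3d -dox, leaving out its replicate 2 gave 0.20. Leaving out its replicate 3, which was the highest in 8 of 10 kinases, gave 0.00081. For 5d -dox, leaving out its replicate 2 gave -0.012. Over the same days *GFP* was called lower at 3d -dox (log2 fold change -3.41, SE 0.31, adjusted p = 3.34e-04, limma) and at 5d -dox (-6.69, SE 0.31, adjusted p = 3.77e-08). *Rb1* was not called at 3d -dox (0.23, SE 0.17, adjusted p = 0.532, limma) or at 5d -dox (0.27, SE 0.17, adjusted p = 0.525). Every 5d -dox mouse lay above every 16w +dox mouse for *Rb1*.

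The 5d -dox and 1d -dox groups were both female. All 10 kinases had a log2 fold change below 0 between them, from -0.48 (*Mastl*, SE 0.15) to -0.18 (*Aurka*, SE 0.19), with a median of -0.30. None was called, beside 0.0143% of all genes, and the smallest adjusted p was 0.623. At an unadjusted p under 0.05 there were 3 kinases lower, by limma and likewise 3 by edgeR and by DESeq2. Here too the share of all genes at that level is not given, and the count is only a description. The kinases whose mice lay apart were *Mastl*, *Pbk* and *Bub1*. *Pbk* measured 5.69, 5.32 and 5.32 FPM at 5d -dox and 7.14, 8.37, 9.20 and 6.15 FPM at 1d -dox. Every 5d -dox mouse was below every 1d -dox mouse in 3 of 10 kinases, beside 3.51% of all genes. Without 1d -dox replicate 4 the median was -0.47.

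**Figure D4:**
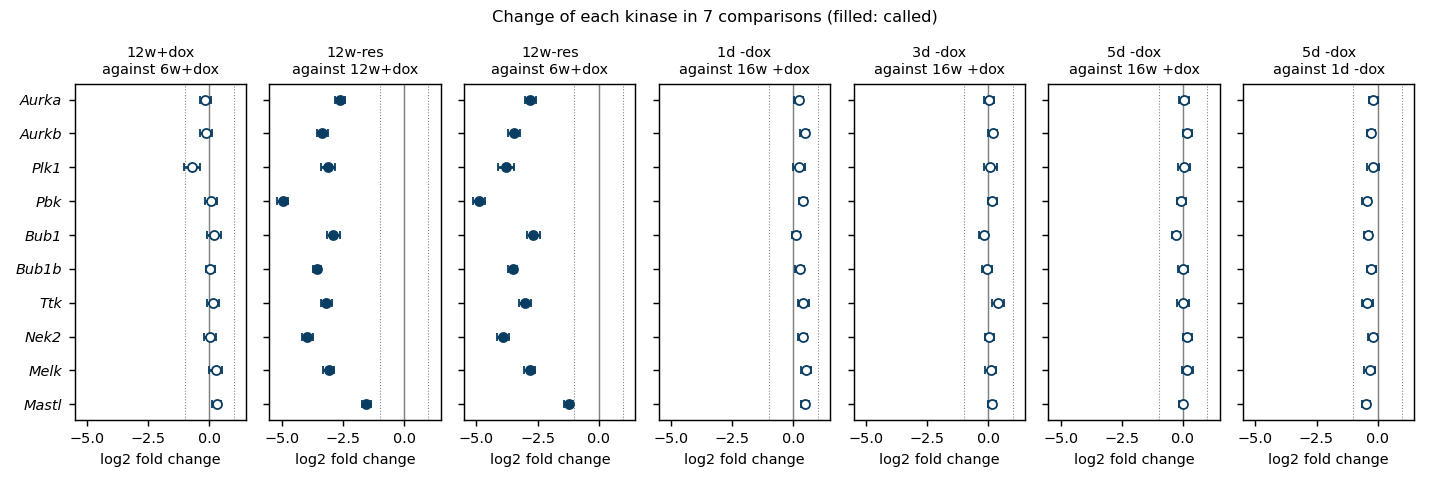
Log2 fold change of each kinase on the log2(FPM + 0.5) scale in the 7 comparisons; bars are standard errors, filled points are called kinases (adjusted p below 0.05 and a change past the dotted lines at 1 in size). All 10 are filled in both 12w-res comparisons (-4.96 to -1.23) and all are open in the other 5, where values lie between -0.70 and 0.50.

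Per length, *Pbk* was the highest and *Mastl* the lowest kinase in each of the 4 short-term groups. *Pbk* measured 3.39 ± 0.876 FPM per kb at 16w +dox, 4.49 ± 0.780 at 1d -dox (SD, n = 4), 3.82 ± 0.866 at 3d -dox and 3.17 ± 0.125 at 5d -dox (SD, n = 3 for the others). *Mastl* measured 0.458 ± 0.0345, 0.671 ± 0.113, 0.529 ± 0.105 and 0.453 ± 0.0549 FPM per kb in the same order. *Nek2* came second in each group, and it overlapped *Pbk* in all but 3d -dox. Within a mouse *Pbk* stood above *Mastl* by 2.37 to 3.14 on the log2 scale per length in all 13.

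Both sexes were present in these 2 groups only, 12w-res and 12w+dox, and the changes of males and females were compared there. The fall in males ran from -4.97 to -1.49 and in females from -4.90 to -1.58 on the log2 scale. The difference (female minus male) was between -0.086 (*Mastl*) and 0.43 (*Aurkb*), and 0 of 10 kinases passed the test of it (limma interaction of condition and sex, adjusted p = 0.999 for each), beside 13 of 15315 genes. Without 1 mouse in turn the highest difference among the kinases ran from 0.12 (without 12w+dox replicate 1) to 0.80 (without 12w+dox replicate 2), and the lowest reached -0.42 (without 12w-res replicate 4). At an unadjusted p under 0.05 there were 0 kinases, also by edgeR and DESeq2. With 2 to 3 mice of a sex in a group the SE of the difference were 0.35 to 0.58. Differences of that size, and also clearly larger ones, could be missed. The test therefore does not show that the sexes changed alike.

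The partners of these kinases were read from lists of their pathways. Of 8 partners of the Aurora kinases and of the passenger complex, 4 fell in 12w-res against 12w+dox (*Tpx2*, *Birc5*, *Cdca8* and *Incenp*), beside 5.04% of all genes called lower, the share behind each list's count in this comparison. The largest change was in *Tpx2*, the activator of Aurora A (log2 fold change -3.40, SE 0.17, adjusted p = 8.84e-09, limma). *Ajuba*, a scaffold that binds Aurora A, rose (log2 fold change 1.19, SE 0.28, adjusted p = 0.00474), and *Ndel1* was nearest to 0 (0.26). *Ajuba* was at 0.64 and not called with totals of recovered reads. The list's median was -1.18, beside -0.0040 over all genes.

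Of 13 genes of the CDK1 switch, 7 fell, with a median of -1.38. *Ccnb1*, which encodes cyclin B1, changed most (-3.51, SE 0.21, adjusted p = 3.76e-08) and *Pkmyt1*, an inhibitory kinase of CDK1, least among those called (-1.38, SE 0.26). The phosphatase gene *Cdc25a* was at -0.0095. Of 16 partners in the spindle assembly checkpoint, 11 fell (median -2.12), from *Spc25* of the NDC80 complex (-4.20, SE 0.22, adjusted p = 1.06e-08) to *Trip13* (-1.42, SE 0.27), while *Mis12* was at -0.22.

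Of 10 genes of mitotic exit, 4 fell (median -0.60), led by *Ube2c*, the ubiquitin-conjugating enzyme of the anaphase-promoting complex (-3.42, SE 0.23, adjusted p = 1.11e-07), with *Fbxo5* at -1.87 and the complex's subunit *Cdc27* at -0.074. Of 10 drivers of G2/M transcription, 4 fell (median -0.69). *Foxm1* was at -2.77 (SE 0.17, adjusted p = 4.53e-08), *Lin9* at -1.43 and *Lin37* at 0.041.

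Related kinases that are not on the list, not all of the same families, were read too. Of 24 tested, 5 fell (*Plk5*, *Chek1*, *Gsg2*, *Nek8* and *Plk4*), beside 5.04% of all genes, and 2 rose (*Nek6* and *Lats2*), beside 6.24%. The other 17 were not called, and the median over all 24 was -0.058. *Plk5*, a Polo-like kinase known from brain, measured 7.33 ± 1.47 FPM in 12w-res (SD, n = 5) and 95.2 ± 32.02 FPM at 12w+dox (SD, n = 4), a log2 fold change of -3.56 (SE 0.23, adjusted p = 5.56e-08). *Nek6* was at 1.23 (SE 0.14, adjusted p = 1.24e-05), and neither *Nek6* (0.59) nor *Lats2* (0.65) was called with totals of recovered reads. *Chek2*, a kinase of the DNA damage response, was at -0.012.

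Between 12w+dox and 6w+dox, 4 of the 81 genes of the 6 lists were called (4.94%), beside 7.20% of all genes. *Wee1* (1.11) and *Cit* (1.11) rose, and *Pttg1* (-1.11) and *Nek6* (-1.03) fell. In the 4 short-term comparisons 0 genes of the 6 lists were called.

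**Figure D5:**
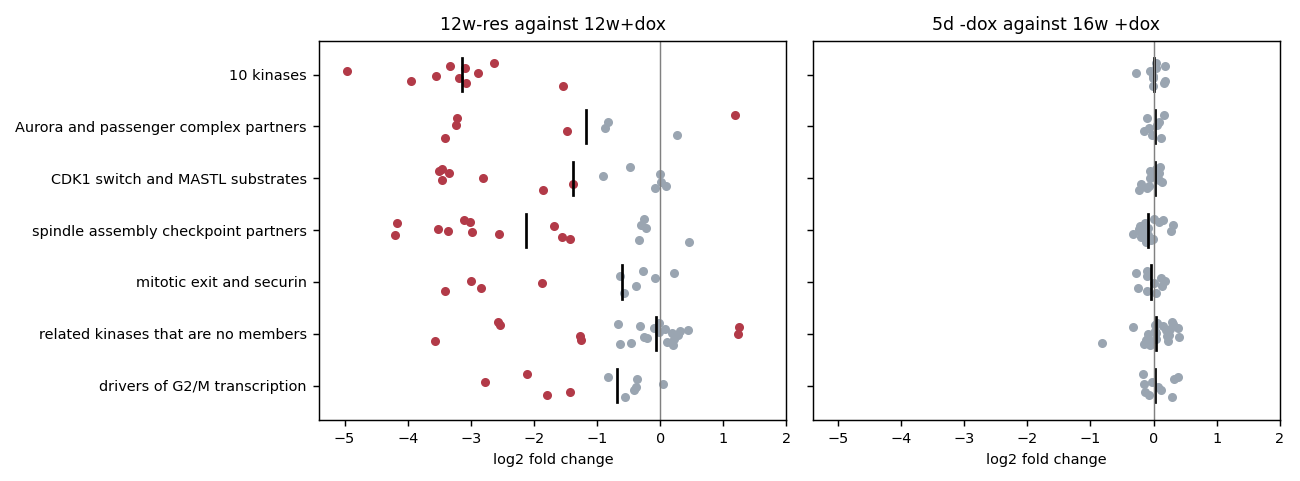
Log2 fold change of the 10 kinases and of the genes of 6 pathway lists in 12w-res against 12w+dox (left) and in 5d -dox against 16w +dox (right); each point is 1 gene, red where called, and each bar is a median. The medians on the left run from -3.14 (the 10 kinases) to -0.058 (related kinases that are no members), and no point is red on the right.

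Genes with the most similar pattern were found by the mean absolute difference of log2 levels over all 25 mice, after each gene was centered within each table. Against the average of the 10 kinases, the nearest of 13507 other genes were *Nuf2* (0.10), *Birc5* (0.12), *Mcm3* (0.13), *Ccna2* (0.13) and *Nrm* (0.14). Nearest to single kinases were *Pcna* for *Aurka*, *Asf1b* for *Aurkb*, *Ncaph* for *Plk1*, *Spc25* for *Pbk* and *Ncapg* for *Bub1*. They were *Tpx2* for *Bub1b*, *Nuf2* for *Ttk*, *Ckap2l* for *Nek2* and *Wdr62* for *Mastl*. Among the kinases themselves, *Aurkb* and *Bub1b* were the closest pair (0.17) and *Pbk* and *Mastl* the farthest (0.90).

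Because the 10 kinases fell together, their promoters were read from RefSeq windows of GRCm38.p6, from 250 bases before to 50 bases after the start. Windows were held for 8 of the 10, all but *Aurkb* and *Pbk*. TTTGAA, the core of the cell cycle homology region, was found on either strand in 4 of 8 windows (*Aurka*, *Plk1*, *Bub1b* and *Ttk*), beside 17.9% of all 32851 windows. Its variant TTTAAA was found in 2 of 8 (*Aurka* and *Plk1*), beside 13.2%. The CCAAT box was found in 7 of 8, all but *Melk*, beside 37.4%, and the E2F core in 0 of 8, beside 9.57%. The core was searched as TTCCCGC and in further forms, which were TTGGCGC as well as the closely related TTCGCGC and finally also TTGCCGC. A match is a description, not a site. Each motif was counted on its own, and none of the motifs contains another.

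The stretches around TTTGAA are shown since they hold the element that the most windows share beyond CCAAT, 30 bases each, with TTTGAA in capitals (TTCAAA in *Ttk*, where it lies on the other strand). They are chr2:172370521-172370550 (minus strand, *Aurka*), chr7:122159453-122159482 (*Plk1*), chr2:118598231-118598260 (*Bub1b*) and chr9:83834684-83834713 (*Ttk*).
Aurka: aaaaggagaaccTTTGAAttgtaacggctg
Plk1: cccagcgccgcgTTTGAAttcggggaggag
Bub1b: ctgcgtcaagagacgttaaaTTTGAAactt
Ttk: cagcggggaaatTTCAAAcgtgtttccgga

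The 120 bases before the start are shown for *Aurka* (chr2:172370571-172370690, minus strand), *Plk1* (chr7:122159315-122159434, plus strand) and *Mastl* (chr2:23156025-23156144, minus strand), the kinase with the smallest fall. The start is that of the promoter window. For *Aurka* it lies inside the gene span given above, so these 120 bases are not upstream of the whole gene. Capitals mark CCAAT, or ATTGG where the box lies on the other strand.
Aurka: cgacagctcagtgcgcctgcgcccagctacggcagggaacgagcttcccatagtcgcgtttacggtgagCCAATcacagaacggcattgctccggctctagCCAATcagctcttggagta
Plk1: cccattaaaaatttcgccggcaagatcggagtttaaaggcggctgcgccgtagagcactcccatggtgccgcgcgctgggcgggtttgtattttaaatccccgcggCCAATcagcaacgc
Mastl: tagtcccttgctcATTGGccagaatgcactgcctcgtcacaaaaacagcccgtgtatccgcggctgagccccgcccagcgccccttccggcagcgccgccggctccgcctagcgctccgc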

How the data were processed

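RNA-seq values of 25 sh*Rb* mice were taken from the tables that the authors deposited, 1 for the long-term and 1 for the short-term libraries. The authors mapped reads to mm10 with STAR, counted them on RefSeq genes and deposited a signal scaled by DESeq2 size factors (FPM). The counting tool and its use of strand are not given in the sources used here. Every value divided by what 1 read is worth in its library gave a whole number within 0.1, so reads were recovered. Lines that name no gene (2 long-term and 4 short-term, the latter 68.8% to 75.0% of a library) were left out. Genes needed 10 reads in over 50% of the mice of a group. The main test was limma 3.58.1 (R 4.3.3, trended variance) on log2(FPM + 0.5), a scale that understates changes of low genes, with all groups of a table in 1 fit and Benjamini-Hochberg adjustment. edgeR 4.0.16 and DESeq2 1.42.0 on recovered reads, other scalings, pseudocounts, filters, sex terms, a replicate block and leaving out each mouse were alternatives.

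Named are the 10 kinases, *Rb1*, *GFP*, per pathway list the called genes of largest and smallest change, the gene nearest 0 and the genes nearest in pattern. Further genes were named, once values had been seen, where few of a list were called. The members and lists were chosen with earlier results of these data known. No source gives a litter or batch. Lengths came from GENCODE vM21 and names, positions and promoters from RefSeq GRCm38.p6. The gene nearest in pattern to *Melk* is not reported here.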

Additional observations from a re-analysis of the deposited data

Results flagged for a closer look

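Of 30 sets of values (each kinase in each group of 4 or 5 mice), 1 held a mouse whose gap to the nearest other mouse was large for the range of the group. In 12w-res, replicate 2 measured 0.687 FPM of *Bub1b* (13 reads), beside 1.05 to 1.18 FPM in the other 4 mice. Chance gives such a gap in about 1 of 20 groups. Without this mouse *Bub1b* was still called lower against both dox-treated groups.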

How the results depend on the processing

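The counts of called kinases were the same under every alternative that was run, with 2 exceptions. Without 1 mouse in turn, 0 to 1 kinases were called lower at 12w+dox against 6w+dox, the 1 being *Plk1* without 6w+dox replicate 3 (log2 fold change -1.01). The filter of 10 reads in every library left 7 kinases to test in the long-term table, and all 7 were lower in both 12w-res comparisons. At 1d -dox against 16w +dox, the log2 fold change of *Bub1* ran from -0.048 to 0.23 without 1 mouse in turn, and it was below 0 without 16w +dox replicate 2 (-0.048) and without 1d -dox replicate 3 (-0.022). The kinases' median log2 fold change in 12w-res against 12w+dox ran from -3.71 (DESeq2) to -2.77 (pseudocount 1), and against 6w+dox from -3.81 (DESeq2) to -2.86 (pseudocount 1). Against 12w+dox it was -3.06 in females only and -3.22 in males only. The replicate numbers were not used to pair the mice in the main test. Deviations of same-numbered mice correlated at -0.21 to 0.24, and in no comparison were all above 0.1. For 1d -dox against 16w +dox they were 0.089, 0.098 and 0.120. Such correlations cannot tell whether mice shared litters or handling. With the replicate number as a block, 10 kinases were lower in each 12w-res comparison (medians -3.13 and -3.17) and 0 were called in the others. A mouse whose number no other group shared did not inform that fit. The 12w-res values rest on 4 to 61 reads per kinase and mouse.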
